A study of Rattus norvegicus with 82 samples.

Results

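Aminoacyl-tRNA synthetases are the enzymes that join each amino acid to its tRNA. The set described here was taken by symbol from a list of 36 synthetase genes, of which 34 had counts in the deposited table of 17337 genes. The list was chosen with earlier results of these data known. Iars2 and Mars2 were not analysed here. The 34 members comprised 20 genes for cytosolic enzymes and 14 genes for mitochondrial enzymes, the latter being those whose symbol ends in ars2. Gars and Kars, counted as cytosolic, each serve both compartments. All 34 members passed the filter on low counts, with at least 36 reads in every library, and were tested among 11954 genes.

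Charged tRNAs are the substrates of the ribosome, so synthetases are needed wherever protein is made. The cytosol and the mitochondrion have separate translation systems, and most amino acids have a nuclear gene for each. Cardiac muscle has many mitochondria, whose ribosomes make subunits of the respiratory chain. Several cytosolic synthetases are held together in a large multi-synthetase complex by non-enzymatic scaffold proteins. Many cytosolic synthetase genes are also known targets of ATF4, the transcription factor of the amino acid response, whereas the mitochondrial genes are not usually counted among its targets.

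RNA was measured in cardiomyocytes of both ventricles, right (RV) and left (LV), of 41 rats, which gave 82 libraries in 12 groups. The animals were offspring of female Wistar Kyoto and male Lewis rats. They had undergone sham surgery, pulmonary artery banding (PAB), which loads the RV, or banding of the ascending aorta (AOB), which loads the LV. Clips were placed without constriction and load developed as the animals grew, and tissue was taken at a compensated stage (H) or at a failing stage (F). Sham-H comprised 7 animals, PAB-H 6 and AOB-H 6, all labelled 11 weeks of age with 7 weeks of treatment. Sham-F comprised 9 animals and AOB-F 7, both labelled 31 weeks of age with 26 weeks of treatment, and PAB-F comprised 6 animals labelled 28 weeks with 22 weeks. Every group held both sexes. The ages stated in the methods of the study differ from these labels. By the labels PAB-F was younger than its shams, and stage and age cannot be told apart in any comparison of F with H.

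Libraries held between 6675287 and 19665439 counted reads. The defining genes of ventricular cardiomyocytes took between 5.3% and 12.1% of the reads in the 82 libraries, whereas those of endothelial cells took at most 0.473%, those of fibroblasts at most 0.284% and those of macrophages at most 0.0209%. The first principal component of the 11920 tested genes outside the set held 46.9% of the variance. It ran from -54.2 to 6.97 in RV libraries, with a median of -16 in LV libraries of stage H and of 66.6 in those of stage F. By the midpoint of these LV medians, 25.3, 5 libraries stood apart from their stage, namely LV Sham-H replicates 4 (75.4) and 5 (36.7), LV PAB-H replicate 2 (66.2), LV PAB-F replicate 5 (2.74) and LV AOB-F replicate 5 (25). The last of these lay next to the midpoint. In samples of many cells, fewer cells of a type and less RNA per cell cannot be told apart.

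Cytosolic synthetase mRNAs were more abundant per length than mitochondrial ones. The median of the members' median FPKM values (reads scaled to gene length and library size) over 82 libraries was 25.5 for cytosolic and 14.1 for mitochondrial genes, against 9.22 for all tested genes. Kars, the lysyl enzyme of both compartments, and Qars, the glutaminyl enzyme, were the highest cytosolic members, with median FPKM values of 62.9 (range 35.8 to 80.4) and 60.7 (46.3 to 74.1). Their order was not stable, since Kars was above Qars in 46 of 82 libraries. Hars, the histidyl enzyme, was the lowest cytosolic member with a median of 10.3 FPKM (4.52 to 15.7).

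Among mitochondrial members, Tars2 for threonine led with a median of 48.7 FPKM (31.1 to 71.4), followed by Fars2 for phenylalanine with 35.3 FPKM (24.3 to 50.7). This order held in 82 of 82 libraries, and Fars2 also exceeded the next gene, Cars2, in 82 of 82. Pars2 for proline was lowest, at a median of 2.30 FPKM (1.12 to 3.98). The width of the ranges differed between members. Qars varied little, whereas Dars for aspartate ran from 9.61 to 63.6 FPKM and Lars for leucine from 4.40 to 26.2 FPKM.

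**Figure D1:**
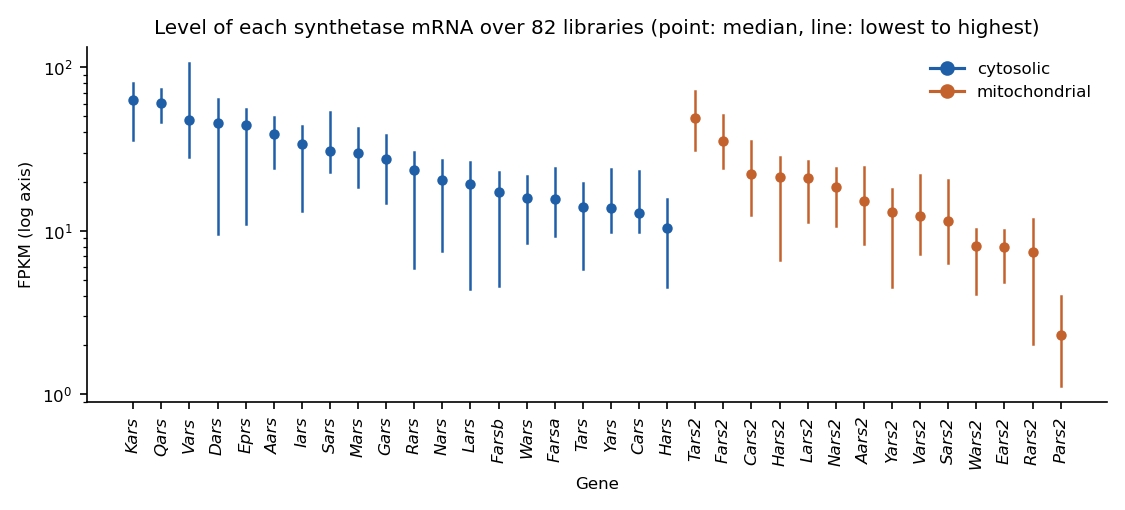
Level of each synthetase mRNA in FPKM on a log axis, ordered by median within the cytosolic and mitochondrial enzymes; points are medians and lines run from the lowest to the highest of 82 libraries. Kars (62.9) and Qars (60.7) led the cytosolic genes, Tars2 (48.7) the mitochondrial genes, and Dars and Lars had wide ranges.

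The comparison of the ventricles within each condition used both samples of the same animals, which the main fit treated as separate libraries. A fit with the animal as a block was an alternative. In Sham-F, 30 of the 34 members passed the test, of which 20 had the higher level in the RV and 10 in the LV (edgeR's quasi-likelihood test, Benjamini-Hochberg adjusted p under 0.05 over all genes). The ventricles differed in 74.3% of all tested genes, 35.6% higher and 38.6% lower in the RV, so that being called was common for any gene. The median log2 fold change was 0.56 for the cytosolic and 0.05 for the mitochondrial members, against -0.07 for all genes. Averaged as log2 CPM (counts scaled to library size), the cytosolic members were higher in the RV than in the LV of 9 of 9 Sham-F animals and the mitochondrial members likewise in 9 of 9. The differences within an animal were 0.30 to 0.91 for the cytosolic mean, which had a standard deviation of 0.165 within groups, and 0.11 to 0.42 for the mitochondrial mean, with a standard deviation of 0.123.

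Enzymes of the multi-synthetase complex were mostly higher in the RV. In Sham-F, 7 of 8 were higher than in the LV and none lower, with a median log2 fold change of 1.29, against 35.6% of all genes higher and 38.6% lower. Of the other 12 cytosolic enzymes, 7 were higher and 4 lower, with a median of 0.27. The 8 complex enzymes and the 12 others were not tested against each other. Dars, the aspartyl enzyme of the complex, had normalised read counts of 1085 to 1276 in the 9 RV Sham-F libraries (median 1139) and of 192 to 484 in the LV (median 282). The ventricles did not overlap, and the log2 fold change was 1.91 (SE 0.18, adjusted p = 1.32e-14, edgeR).

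Lars, which charges tRNA with leucine, ran from 1033 to 1337 in the RV (median 1082) and from 262 to 654 in the LV (median 322). Its log2 fold change was 1.61 (SE 0.19, adjusted p = 5.72e-12, edgeR) and the groups did not overlap. Rars, the arginyl enzyme, ran from 579 to 795 in the RV (median 734) and from 167 to 299 in the LV (median 229), a log2 fold change of 1.61 (SE 0.16, adjusted p = 4.4e-14, edgeR) without overlap. The lowest RV library was thus well above the highest LV library for this gene.

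Eprs, a bifunctional enzyme for glutamate and proline, had counts of 2617 to 3313 in the RV (median 2886) and of 804 to 1634 in the LV (median 917), a log2 fold change of 1.498 (SE 0.17). For Iars, the isoleucyl enzyme, the counts were 2052 to 2527 in the RV (median 2194) and 793 to 1374 in the LV (median 993), a log2 fold change of 1.08 (SE 0.13). Both were without overlap between ventricles. Qars was the complex enzyme that was not called, with a log2 fold change of 0.00 (SE 0.06, adjusted p = 0.961, edgeR).

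Outside the complex, Farsb and Farsa, which encode the beta and alpha subunits of one enzyme, the cytosolic phenylalanyl-tRNA synthetase, moved in opposite directions. Farsb had counts of 499.5 to 653 in the RV (median 562) and of 130.4 to 353 in the LV (median 170.2), a log2 fold change of 1.58 (SE 0.18, adjusted p = 1.93e-12, edgeR) without overlap. Farsa ran from 328 to 409.6 in the RV (median 367) and from 377 to 572 in the LV (median 518), a log2 fold change of -0.45 (SE 0.09, adjusted p = 6.99e-06, edgeR) with some overlap. Per length, median FPKM values of the subunits were 19.1 for Farsb and 15.3 for Farsa in the RV, and 5.82 for Farsb and 21.1 for Farsa in the LV. The subunit with the higher median level thus differed between the ventricles of Sham-F.

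Nars for asparagine (counts 782 to 907 in the RV, 263 to 621 in the LV, medians 837 and 359) had a log2 fold change of 1.13 (SE 0.16). Hars ran from 277 to 351 in the RV (median 303) and from 117 to 246.5 in the LV (median 148), a log2 fold change of 1.01 (SE 0.13). Neither overlapped between the ventricles. Cytosolic members lower in the RV were Vars, the valyl enzyme, with -0.85 (SE 0.11), Farsa, Cars for cysteine with -0.25 (SE 0.10) and Yars for tyrosine with -0.21 (SE 0.08). Vars had counts of 2001 to 2527 in the RV (median 2198) and of 2942 to 5582 in the LV (median 3728), and was the 1 member entirely lower in the RV libraries.

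Mitochondrial members split evenly, with 6 higher and 6 lower in the RV of Sham-F. Rars2, the mitochondrial arginyl enzyme, had counts of 192 to 250.03 in the RV (median 205) and of 57.8 to 122 in the LV (median 83.3), a log2 fold change of 1.34 (SE 0.16). Hars2, the mitochondrial histidyl enzyme, had counts of 864 to 1164 in the RV (median 977) and of 293 to 605 in the LV (median 356), a log2 fold change of 1.30 (SE 0.15). Neither gene overlapped between the ventricles. The members lower in the RV were Vars2 (-0.66), Pars2 (-0.47), Aars2 (-0.39), Cars2 (-0.32), Sars2 (-0.32) and Tars2 (-0.27).

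Of the 11 amino acids for which both a cytosolic and a mitochondrial gene were measured, excluding phenylalanine with its separate subunits, 5 had both genes higher in the RV (histidine, leucine, asparagine, arginine and tryptophan). Cysteine and valine had both lower. Alanine, threonine and tyrosine had the genes in opposite directions: Aars 0.32 and Aars2 -0.39, Tars 0.99 and Tars2 -0.27, Yars -0.21 and Yars2 0.78. For serine only Sars2 was called.

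By the criteria the study used for its gene lists (an absolute log2 fold change over 1, unadjusted p at most 0.01 and a mean count over 50), 10 members differed between the ventricles of Sham-F, all higher in the RV, against 27.7% of all genes in either direction. Without overlap between the 9 and 9 libraries, 15 members were higher and 1 lower in the RV, against 22.4% and 19.4% of all genes.

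**Figure D2:**
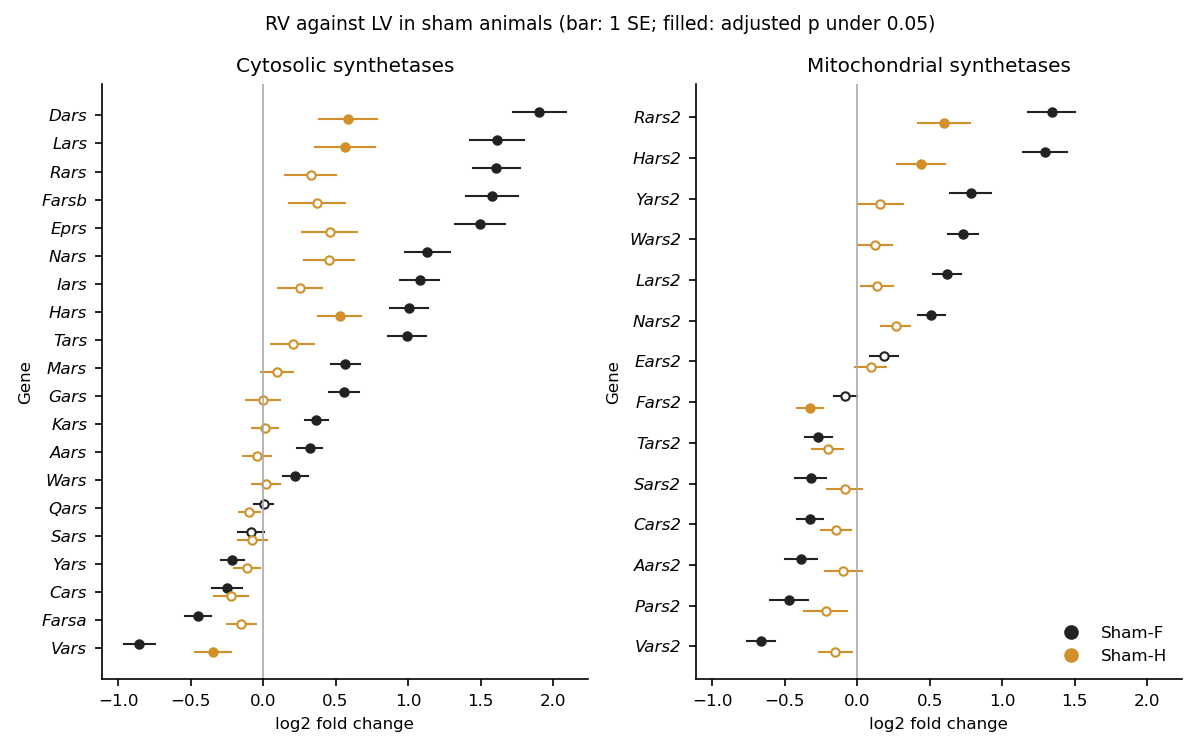
Log2 fold change of RV against LV for each member in Sham-F (black) and Sham-H (orange); bars are 1 SE and filled points have an adjusted p under 0.05. In Sham-F, Dars (1.91), Lars (1.61), Rars (1.61) and Farsb (1.58) lay far to the right while Farsa (-0.45) and Vars (-0.85) lay left of 0, and the Sham-H values were nearer to 0.

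In Sham-H, 7 members were called, against 21% of all genes, 9.62% higher and 11.4% lower in the RV. Rars2 (0.60), Dars (0.59), Lars (0.57), Hars (0.53) and Hars2 (0.44) were higher and Vars (-0.35) and Fars2 (-0.32) lower in the RV. Dars had counts of 836 to 1135 in the 7 RV libraries (median 984) and of 219.9 to 973 in the LV (median 720.1), with an adjusted p of 0.0292 (edgeR). The LV values of replicates 4 and 5, 219.9 and 360, were the lowest, and both libraries stood apart on the first principal component. For Rars2, counts were 189 to 268 in the RV (median 226) and 51.4 to 232 in the LV (median 166), with an adjusted p of 0.0139 (edgeR). Lars counts were 979 to 1194 in the RV (median 1017) and 227 to 1078 in the LV (median 941), adjusted p = 0.0405 (edgeR). For Hars, counts were 267 to 409.8 in the RV (median 308) and 168 to 297 in the LV (median 215), adjusted p = 0.00813 (edgeR).

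The ventricles overlapped for all 34 members in Sham-H, whereas 1.61% of all genes were higher and 2.99% lower in the RV without overlap. No member met the criteria of the study, against 2.83% of all genes. Without the 5 libraries that stood apart, 0 members were called in Sham-H, without replicate 4 alone 0, and without replicates 5, 3 or 6 alone 2, 4 and 4. Replicates 4 and 5 had the lowest cytosolic means of LV Sham-H (5.55 and 5.63). A smaller ventricle difference was thus largely fixed by leaving them out, and these counts are a description. A fit with the animal as a block called 14, of which 10 were higher and 4 lower in the RV. As a signed log2 fold change of RV against LV, the ventricle difference was higher in Sham-F than in Sham-H for 18 members and lower for 2. Of all genes, 41.6% were called in either direction (23% higher and 18.6% lower). For Dars the difference of differences was 1.32, for Rars 1.281 and for Farsb 1.21, whereas for Vars and Vars2 it was -0.51. Vars (-0.35) and Vars2 (-0.15) were already below 0 in Sham-H, and lay further below 0 in Sham-F.

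**Figure D3:**
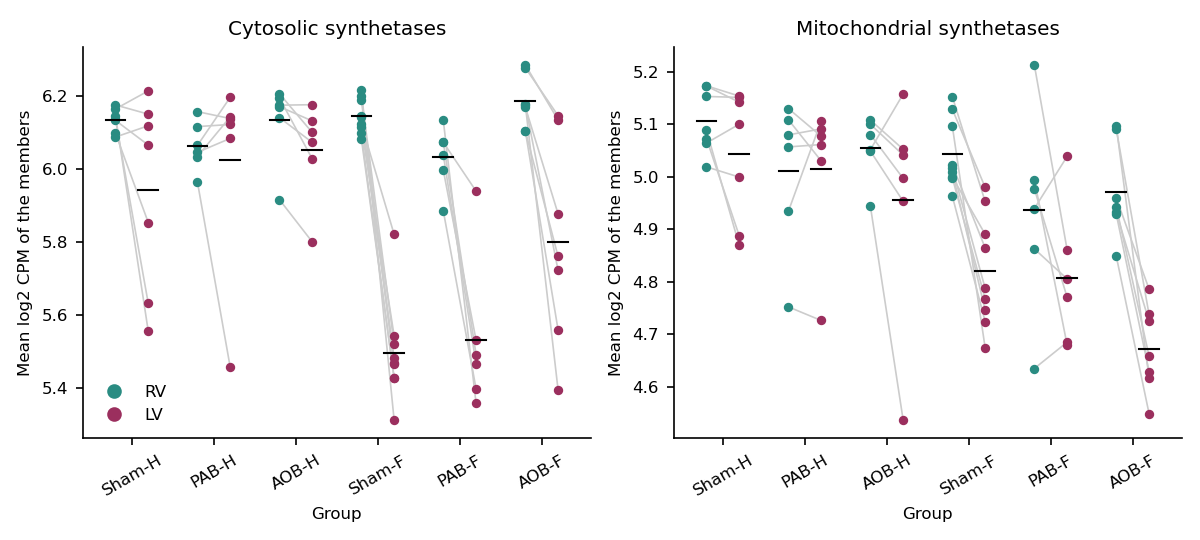
Mean log2 CPM of the 20 cytosolic (left) and 14 mitochondrial (right) members in every library, by condition; grey lines join the RV and LV of an animal and black bars are group means. At stage F the cytosolic mean was higher in the RV of every animal (9 of Sham-F, 6 of PAB-F, 7 of AOB-F). At stage H it was higher in the RV of 5 of 7 Sham-H, 5 of 6 AOB-H and 2 of 6 PAB-H animals. Across animals, the cytosolic means of the ventricles overlapped in every condition but Sham-F.

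The banded animals of stage F had a ventricle difference too. In PAB-F, 24 members were called, 19 higher and 5 lower in the RV, against 61.1% of all genes (32.1% higher and 29% lower). In AOB-F, 18 members were called, 15 higher and 3 lower, against 67.1% of all genes (32% higher and 35.1% lower). Within animals, the cytosolic mean was higher in the RV in 6 of 6 PAB-F and 7 of 7 AOB-F animals, and the mitochondrial mean in 4 of 6 and 7 of 7. In PAB-F, Dars ran from 807 to 1125 in the RV (median 979) and from 291 to 694 in the LV (median 304), a log2 fold change of 1.40 (SE 0.22, adjusted p = 3.23e-07, edgeR). Eprs ran from 2553 to 3238 in the RV (median 2877) and from 925 to 1835 in the LV (median 1055), a log2 fold change of 1.30 (SE 0.21, adjusted p = 4.26e-07, edgeR).

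In these PAB-F animals, Lars (1.26), Rars (1.22), Farsb (1.17), Nars (1.06), Rars2 (1.02) and Hars2 (1.01) also met the criteria of the study, against 17% of all genes. In AOB-F, Dars had counts of 985 to 1197 in the RV (median 1070.3) and of 229 to 549 in the LV (median 413), a log2 fold change of 1.43 (SE 0.20, adjusted p = 9.2e-09, edgeR). Rars2 ran from 168 to 236 in the RV (median 208) and from 56.96 to 116 in the LV (median 80.9), a log2 fold change of 1.25 (SE 0.18, adjusted p = 2.16e-08, edgeR). Farsb (1.17), Rars (1.14), Lars (1.12) and Hars2 (1.07) also met the criteria, against 21.9% of all genes. The ventricles did not overlap for any of these genes. In all, 10 members were higher without overlap in PAB-F, against 13.9% of all genes, and 12 in AOB-F, against 17.4%. No member was lower without overlap in PAB-F or AOB-F, against 9.29% and 12.9% of all genes.

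At stage H, 0 members were called between the ventricles of PAB-H, against 0.125% of all genes, and 0 in AOB-H, against 7.98%. The smallest p in PAB-H belonged to Farsa, with counts of 297 to 375 in the RV and 356 to 498 in the LV and a log2 fold change of -0.26 (adjusted p = 0.373, edgeR). In AOB-H it belonged to Mars, the methionyl enzyme, with counts of 1009 to 1435 in the RV and 949.7 to 1161 in the LV and a log2 fold change of 0.24 (adjusted p = 0.237, edgeR). Both overlapped between the ventricles. Of the members, 1 was without overlap in PAB-H, Yars, which was lower in the RV with a log2 fold change of -0.15 (adjusted p = 0.54, edgeR), against 0.351% of all genes lower without overlap.

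The sham stages were compared within each ventricle. In LV Sham-F against LV Sham-H, 25 members were called, 22 lower and 3 higher at stage F, against 57.4% of all genes (29.6% lower and 27.8% higher). Medians were -0.50 for the cytosolic and -0.21 for the mitochondrial members, against 0.03 for all genes. In the RV the same comparison called 0 members, against 0.0502% of all genes. The smallest p in the RV belonged to Vars2, with counts of 483 to 699 in Sham-F and 619 to 763 in Sham-H, a log2 fold change of -0.24 (adjusted p = 0.871, edgeR) and overlapping groups.

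In the LV, Rars fell from a median count of 675 (257 to 872) in Sham-H to 229 (167 to 299) in Sham-F, a log2 fold change of -1.25 (SE 0.17, adjusted p = 6.58e-08, edgeR). Farsb had a median of 489 (143.5 to 565) in Sham-H and 170.2 (130.4 to 353) in Sham-F, a log2 fold change of -1.14 (SE 0.18, adjusted p = 1.3e-06, edgeR). For Dars, medians were 720.1 and 282 and the log2 fold change -1.12 (SE 0.19, adjusted p = 2.13e-06, edgeR). For Lars, they were 941 and 322 and the log2 fold change -0.97 (SE 0.20, adjusted p = 2.87e-05, edgeR). These groups overlapped through LV Sham-H replicates 4 and 5, which stood apart, and for Lars also through replicate 6. The members higher in LV Sham-F were Vars (0.42), Vars2 (0.27) and Farsa (0.26), so that both subunits of the phenylalanyl enzyme were called, in opposite directions, here as well. The criteria of the study were met by 3 members, against 8.05% of all genes. Without overlap, 3 members were lower (Aars, Lars2 and Mars) and 0 higher, against 0.418% and 1.26% of all genes. This comparison shares the LV Sham-F libraries with the comparison of the ventricles.

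Other genes of charging and translation were counted by lists, to be read against the 35.6% of all genes higher and 38.6% lower in the RV of Sham-F. In the RV of Sham-F against the LV, 6 of 8 genes of tRNA maturation and export were higher and 0 lower, among them Ssb, which binds new tRNA transcripts (log2 fold change 2.37), and Trnt1, which adds the CCA end (2.34). Of the scaffold of the complex, Aimp1 (1.19) and Eef1e1 (0.87) were higher and Aimp2 (-0.31) lower. Of the 8 elongation factors, 1 was higher, mitochondrial Gfm1 (1.41), and 5 were lower, among them Eef1a1 (-0.86) and Eef1g (-0.84). Of 21 genes of the ATF4 pathway, 4 were higher, such as Vldlr (1.16) and Cebpg (1.05), and 11 lower, such as Phgdh (-2.02) and Ddit4 (-1.77).

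Other features of the libraries moved with the ventricle and stage. In Sham-F, reads of endothelial markers took a median of 0.0772% in the RV (0.0585% to 0.0983%) and 0.24% in the LV (0.15% to 0.321%), with 5 of 7 markers lower and 1 higher in the RV. Macrophage markers took 0.00269% in the RV and 0.00639% in the LV, with 4 of 7 lower in the RV. Fibroblast markers took 0.0226% and 0.0582%, with 4 of 7 lower in the RV, and mural cell markers 0.0324% and 0.0721%, with 4 of 6 lower. Cardiomyocyte markers took 10.3% (9.59% to 11.7%) in the RV and 8.22% (7.6% to 9.19%) in the LV, with 4 of 9 higher and 2 lower in the RV. Between the LV sham stages, 4 of 6 mural cell, 4 of 7 macrophage and 3 of 7 fibroblast markers were higher at stage F and 0 lower. In that comparison 2 endothelial markers were higher and 1 lower, and 2 cardiomyocyte markers were higher and 4 lower. Most of the libraries that stood apart on the first principal component also had cytosolic means far from their group. LV PAB-F replicate 5 had a cytosolic mean of 5.94 against a group median of 5.48, LV PAB-H replicate 2 had 5.46 against 6.13, and LV Sham-H replicates 4 and 5 had 5.55 and 5.63 against 6.06. LV AOB-F replicate 5, at 5.72, was near its group median of 5.76. With this component as a covariate, 0 members were called between the ventricles in any condition and 0 between the LV sham stages. Most other genes lost their calls as well, with 48 of all genes called between the ventricles of Sham-F, 82 in AOB-F and 17 between the LV sham stages. The component and the ventricle at stage F cannot be told apart, and the part of the other cell types in these results was not tested.

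**Figure D4:**
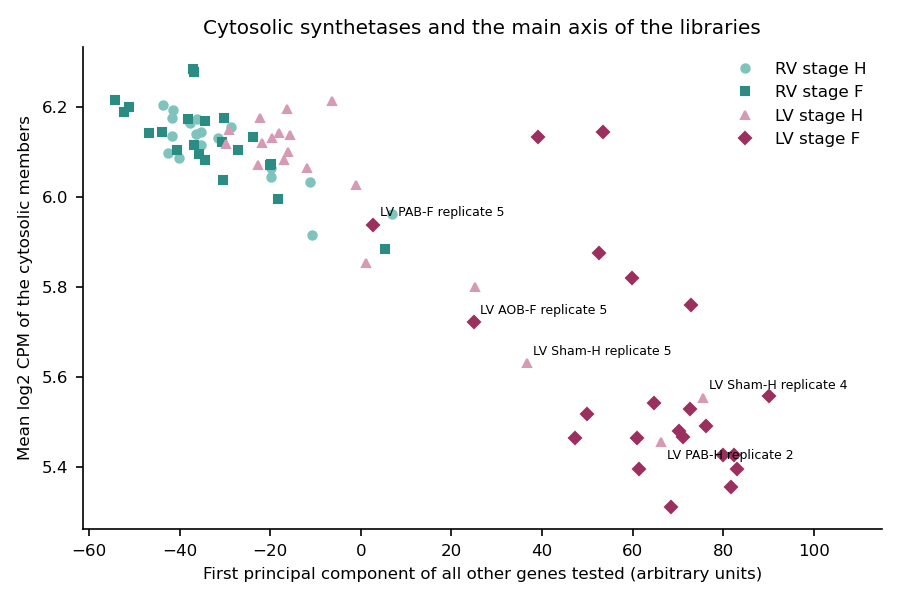
Mean log2 CPM of the 20 cytosolic members against the first principal component of the 11920 other tested genes (arbitrary units), 1 point per library, by ventricle and stage; the 5 libraries that stood apart are named. RV libraries lay between -54.2 and 6.97, most LV libraries of stage F lay to the right at lower means, and LV PAB-F replicate 5 (2.74) lay among the others.

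The effect of load was examined as banded against sham animals of the same ventricle and stage, 8 comparisons in all. The groups of both bandings share their shams. No member was called in 7 of the 8. In RV PAB-H (4.5% of all genes called), the smallest p belonged to Sars2, the mitochondrial seryl enzyme, with counts of 167 to 285 against 268 to 345 in RV Sham-H, a log2 fold change of -0.35 (adjusted p = 0.0922, edgeR). In RV PAB-F (11.1% of all genes called), it was again Sars2, with counts of 190.2 to 303 against 251 to 351 in RV Sham-F and a log2 fold change of -0.30 (adjusted p = 0.0911, edgeR). The groups overlapped in both. In RV PAB-F, 29 of 34 members had a log2 fold change below 0, with a range from -0.30 to 0.17, and 6 members had an unadjusted p under 0.05. Of all 11954 genes, 6232 were above 0 and 3332 had an unadjusted p under 0.05. In RV PAB-F, 4 of 7 fibroblast, 3 of 7 macrophage and 2 of 6 mural cell markers were higher. In RV PAB-H, 7 of 7 fibroblast, 0 of 7 macrophage and 1 of 6 mural cell markers were higher. Of the endothelial markers, 1 of 7 was higher in each. The part of these cells in the values of the members was not tested. Fitting only the compared groups called 1 member, Sars2, in RV PAB-H and 3 members, all lower, in RV PAB-F. Without PAB-H replicate 5, 1 member was called in RV PAB-H, and without PAB-F replicate 4, 2 were called in RV PAB-F. The RV responses to PAB-F and PAB-H differed for 0 members and 0% of all genes.

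In LV AOB-H (0.0167% of all genes called), 10 members and 2387 of all 11954 genes had an unadjusted p under 0.05, with the smallest for Sars2, at 198 to 289.5 against 255 to 424 in LV Sham-H and a log2 fold change of -0.36 (adjusted p = 0.126, edgeR). In the unloaded ventricles, LV PAB-H and RV AOB-H had 0% of all genes called, LV PAB-F 0% and RV AOB-F 0.0669%. The members with the smallest p there were Farsb in LV PAB-H (204 to 675 against 143.5 to 565, log2 fold change 0.33, adjusted p = 0.991, edgeR) and Wars, the tryptophanyl enzyme, in RV AOB-H (515 to 606 against 587 to 712, log2 fold change -0.20, adjusted p = 1, edgeR). In LV PAB-F it was Rars2 (76.2 to 176 against 57.8 to 122, log2 fold change 0.49, adjusted p = 1, edgeR), and in RV AOB-F Wars2 (201 to 273 against 210.2 to 270.5, log2 fold change -0.13, adjusted p = 1, edgeR). All of these groups overlapped.

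LV AOB-F was the exception. Against LV Sham-F, 10 of 20 cytosolic members were called higher and 3 of 14 mitochondrial members lower. No cytosolic member was called lower and no mitochondrial member higher. These 13 are 38.2% of the members, against 12.9% of all genes (8.54% higher and 4.35% lower). By sign alone, 17 of 20 cytosolic and 6 of 14 mitochondrial members had a log2 fold change above 0, as did 6516 of all 11954 genes. Medians were 0.40 for the cytosolic and -0.17 for the mitochondrial members, against 0.04 for all genes. No member was without overlap between the groups, against 0.0586% of all genes higher and 0.0251% lower, and 0 met the criteria of the study, against 1.21% of all genes.

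Tars, the threonyl enzyme, had counts of 216 to 546 in the 7 LV AOB-F libraries (median 394) and 205 to 394 in the 9 LV Sham-F libraries (median 223), a log2 fold change of 0.64 (SE 0.14, adjusted p = 0.00166, edgeR). Its highest values were in replicates 6 (546) and 7 (511). Nars ran from 329 to 718 (median 671) against 263 to 621 (median 359), a log2 fold change of 0.62 (SE 0.17, adjusted p = 0.00803, edgeR). Eprs ran from 1080.3 to 2117 (median 1568) against 804 to 1634 (median 917), a log2 fold change of 0.51 (SE 0.18, adjusted p = 0.0438, edgeR). The other cytosolic members that rose were Hars (0.49), Gars for glycine (0.48), Iars (0.41), Wars (0.39), Aars for alanine (0.32), Mars (0.31) and Kars (0.30). Of these, Gars and Kars also serve the mitochondrion.

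Vars2, the mitochondrial valyl enzyme, fell. Its counts were 475 to 737 in LV AOB-F (median 638) and 611 to 1205 in LV Sham-F (median 936), a log2 fold change of -0.61 (SE 0.11, adjusted p = 8.14e-05, edgeR). Cars2 (-0.39) and Sars2 (-0.38) were the other mitochondrial members that fell. Among the 11 pairs of genes for the same amino acid, 8 had 1 gene called and none had both.

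The number of called members varied with the animals included. LV AOB-F replicates 6 and 7 had cytosolic means of 6.15 and 6.13, against 5.39 to 5.88 in the other 5 libraries and 5.31 to 5.82 in LV Sham-F. Without both, 1 member, Vars2, and 365 of all genes were called. The median log2 fold changes were then 0.24 for the cytosolic and -0.12 for the mitochondrial members, with 0.41 for Tars, 0.53 for Nars, 0.46 for Eprs and -0.59 for Vars2. Since these libraries were picked for their cytosolic means, a smaller cytosolic rise without them was fixed by the choice, and these values are a description. Without replicate 6 alone 8 members were called, without replicate 7 alone 6, and without replicate 4, 20. A fit of the compared groups alone called 0 members and 15 of all genes. Without the libraries that stood apart, 20 members were called, 15 higher and 5 lower, and with the first principal component as a covariate 18, 13 higher and 5 lower, beside 2202 of all genes.

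**Figure D5:**
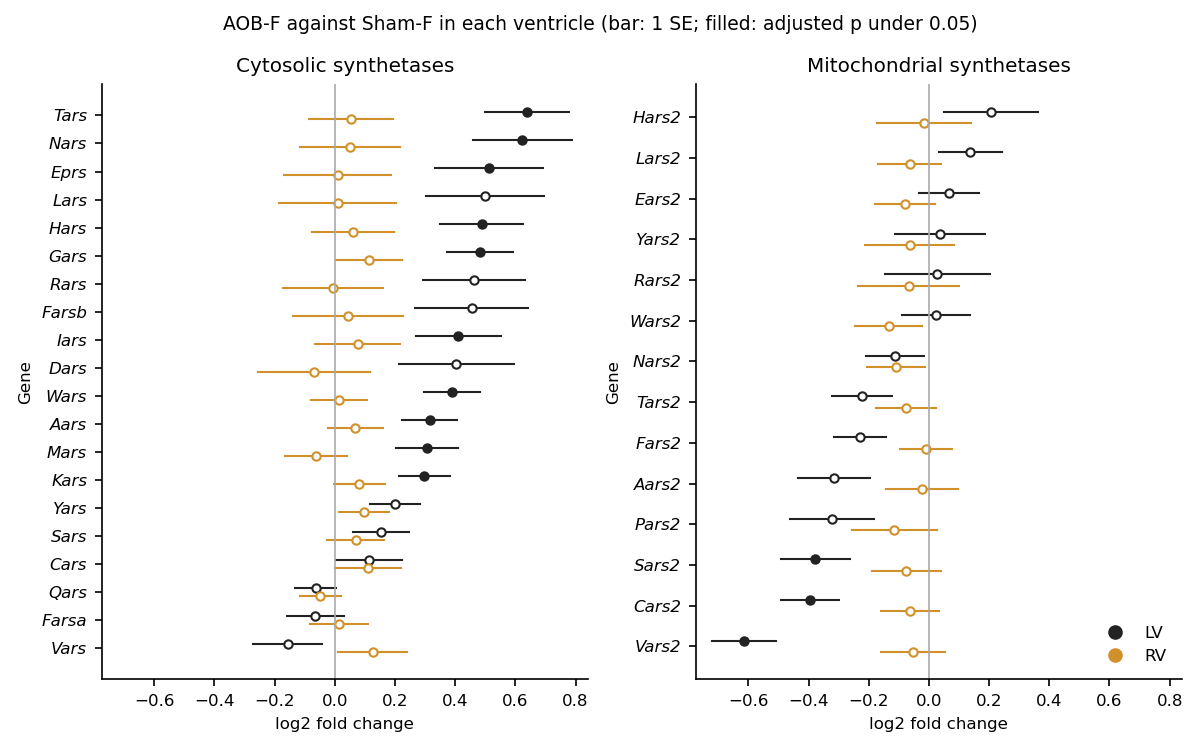
Log2 fold change of AOB-F against Sham-F for each member in the LV (black) and the RV (orange); bars are 1 SE and filled points have an adjusted p under 0.05. In the LV, Tars (0.64) and Nars (0.62) led the cytosolic members and Vars2 (-0.61) was lowest among the mitochondrial members, whereas RV values ran from -0.13 to 0.13 and none was called.

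Some other genes of the amino acid response had high counts in the same pair of animals, and some did not. The genes given here were named after their values were seen, from a pathway list of 21 measured genes, of which 4 rose in LV AOB-F and 0 fell, against 8.54% and 4.35% of all genes. Asns, which makes asparagine, had counts of 312 and 246.8 in LV AOB-F replicates 6 and 7, 10.7 to 22.3 in the other 5 libraries and 7.13 to 22.1 in LV Sham-F, and its log2 fold change was 2.77 (SE 0.50, adjusted p = 0.000175, edgeR). Mthfd2, a mitochondrial folate enzyme, had 237 and 178 in these replicates, 28.9 to 37.4 in the other 5 and 9.80 to 42.8 in LV Sham-F, a log2 fold change of 1.69 (adjusted p = 0.000926, edgeR). The amino acid transporter Slc7a5 had 900.1 and 1014, against 136 to 208 in the other 5 and 168 to 287 in LV Sham-F, a log2 fold change of 0.92 (adjusted p = 0.00648, edgeR). Phgdh had 109.7 and 146, against 5.83 to 46.95 in the other 5 and 18.6 to 47.5 in LV Sham-F. Outside these replicates, Asns, Mthfd2, Slc7a5 and Phgdh overlapped the shams.

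Cebpg, a partner of ATF4, had no such split in the LV (196 and 208 against 62.9 to 199), with a log2 fold change of 0.60 (adjusted p = 0.0125, edgeR). Counts of Atf4 mRNA were 2532 and 2760.0 in the pair and 1829 to 2818 in the other 5. Atf3, another factor of this response, was lower in the pair (2609 and 2482) than in the other 5 (3129 to 4340), with 2217 to 5795 in LV Sham-F. Trib3, an inhibitor of ATF4, had 117.9 and 61.2 against 69.7 to 113.4, and Chac1, a glutathione-degrading target of ATF4, had 26.2 and 45.2 against 9.34 to 35.1. Neither of the last genes separated the pair from the others. Psat1 counts were low, at 10.65 and 9.42 in the pair, 1.86 to 9.34 in the other 5 and 1.64 to 11.35 in LV Sham-F.

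In the RV of the same animals, which was sequenced separately, Asns counts were 142.6 and 41.1, against 2.94 to 16 in the other 5 RV AOB-F libraries. Mthfd2 counts were 110.9 and 79.9 against 22.6 to 39.9, and Slc7a5 counts 307 and 350.2 against 113 to 156. For Phgdh they were 27.7 and 35.3 against 4.78 to 18. RV counts of Cebpg were also highest in the pair, by a small margin, at 256.4 and 282 against 159.3 to 250.2. Those of Atf4, Atf3, Trib3, Chac1 and Psat1 did not separate the pair. The cytosolic means of these RV libraries, 6.28 and 6.29, were the highest of the 7, the others being 6.10 to 6.18. Both animals were female, as was replicate 5. Their LV libraries had 14401868 and 12593307 reads, against 11789283 to 18282203 in the other 5. Cardiomyocyte markers took 5.3% and 5.65% of reads, against 7.53% to 9.36% in the other 5, and macrophage markers 0.0179% and 0.0198%, against 0.00416% to 0.0209%. Neutrophil markers took 0.000632% and 0.00081%, against 8.01e-06% to 6.79e-05% in the other 5 LV AOB-F libraries and at most 9.37e-05% in LV Sham-F. These neutrophil reads were very few, and 0 of these markers were among the tested genes. The part of cell content in these values was not tested.

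Of the members listed as known ATF4 targets, 8 of 13 rose in LV AOB-F and 0 fell, against 8.54% and 4.35% of all genes, and none of the 8 was called without replicates 6 and 7. These replicates were picked for their cytosolic means, so the loss of calls is a description. The scaffold gene Eef1e1 (0.48) and the elongation factors Eef1a1 (0.62) and Eef1b2 (0.38) rose and Aarsd1, which clears mischarged tRNA, fell (-0.36). Fibroblast markers had 1 of 7 and mural cell markers 1 of 6 higher. Endothelial markers took 0.304% of reads in LV AOB-F (0.164% to 0.36%) and 0.24% in LV Sham-F, with 2 of 7 higher. Macrophage markers took 0.0162% (0.00416% to 0.0209%) and 0.00639%, with 3 of 7 higher. Of the 9 cardiomyocyte markers 0 were called. The part of these cells in the result was not tested.

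The responses of the LV and the RV to AOB-F were also compared with each other. No member was called different (edgeR), nor was any other gene (0% of all genes called), while 8 members and 1161 of all 11954 genes had an unadjusted p under 0.05. The difference was 0.58 (SE 0.20, adjusted p = 0.456, edgeR) for Tars and -0.56 (SE 0.15, adjusted p = 0.328, edgeR) for Vars2. In PAB-F, the same comparison called 0 members, against 0.351% of all genes.

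The promoters of the members were searched for TGATGNAA, the core of the C/EBP-ATF response element through which ATF4 acts, on both strands. RefSeq promoters (build GRCr8) matched 31 of the 34 members, and 250 bases before each start were searched. The core was found in 5 of 17 cytosolic members (Aars, Iars, Mars, Nars and Tars) and 0 of 14 mitochondrial members. It was present in 3.27% of all promoters (899 of 27457). Of the matched members that rose in LV AOB-F 5 of 9 held it, and of those that fell 0 of 3. A match in these letters is a description of sequence only. The 125 bases before the start of 4 of these genes are shown because they hold the match, in capitals. Vars2 is shown as the member that fell most in LV AOB-F, with no match in its window. Positions are chr19:55908357-55908481 on the plus strand for Aars, chr17:15193653-15193777 on the minus strand for Iars, chr7:65023754-65023878 on the minus strand for Mars, chr2:62114803-62114927 on the minus strand for Tars and chr20:3081783-3081907 on the plus strand for Vars2.
Aars: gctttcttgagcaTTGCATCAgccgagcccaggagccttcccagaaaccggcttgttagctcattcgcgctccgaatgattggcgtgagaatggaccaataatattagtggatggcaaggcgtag
Iars: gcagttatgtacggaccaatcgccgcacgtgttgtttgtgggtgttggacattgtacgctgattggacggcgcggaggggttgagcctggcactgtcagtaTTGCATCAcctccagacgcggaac
Mars: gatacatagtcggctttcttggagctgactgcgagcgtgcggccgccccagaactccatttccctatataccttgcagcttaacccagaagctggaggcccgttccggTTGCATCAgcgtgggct
Tars: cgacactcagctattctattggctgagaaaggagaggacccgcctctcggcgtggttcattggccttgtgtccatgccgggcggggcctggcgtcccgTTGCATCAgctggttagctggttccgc
Vars2: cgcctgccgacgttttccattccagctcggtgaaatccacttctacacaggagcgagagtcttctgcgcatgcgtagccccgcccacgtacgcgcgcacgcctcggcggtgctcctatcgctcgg
The match began 112 bases before the start in Aars, 24 in Iars, 17 in Mars and 27 in Tars, in each case on the strand opposite to the gene. In Nars, whose sequence is not shown, it began 14 bases before the start on the same strand as the gene.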

How the data were processed

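Total RNA of isolated cardiomyocytes was depleted of ribosomal RNA and sequenced in pairs. The authors trimmed reads with Trim Galore, aligned them to the rat genome with STAR, and made raw counts per gene with featureCounts. They deposited 1 table with raw counts, normalised counts and FPKM values for each of the 82 libraries. The deposited normalised counts are a signal that the authors made by scaling the raw counts of each library with DESeq2 (version 1.28.1 per the labels). How multi-mapping reads between related synthetase genes were treated could affect these values.

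The raw counts were tested in R 4.3.3 with edgeR 4.0.16 (quasi-likelihood test, TMM scaling, filterByExpr), 1 mean per group over all 12 groups, 11954 of 17337 genes, 70 residual degrees of freedom and Benjamini-Hochberg adjustment over all genes. The biological coefficient of variation was 0.244. A member was called at an adjusted p under 0.05. The scripts were tested on simulated data. Normalised read counts in the text are raw counts scaled to the mean effective library size of 13279120. FPKM as deposited by the authors was used for levels between genes. Replicates were separate animals.

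RV and LV of 1 animal are paired by the labels. Deviations from group means correlated between ventricles of an animal with medians of 0.186 to 0.297 per condition, and with medians of -0.0686 to -0.0142 between different animals. The animal was not in the main design and is an alternative. Values were printed for the called members with the largest changes (4 per comparison of 2 groups, 2 between ventricles of banded groups), the member with the smallest p where none was called, those meeting the criteria of the study and the members of highest and lowest level. Members and gene lists were chosen with earlier results of these data known. Lists for mural cells, neutrophils and red blood cells were also measured, and took at most 0.11%, 0.00081% and 0.0264% of reads in the 82 libraries. DESeq2 1.42.0 was run as an alternative. The alternatives are described in the closing section.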

Additional observations from a re-analysis of the deposited data

Results flagged for a closer look

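Some values lay far from the other libraries of their group by Dixon's test, which flags about 1 in 20 groups by chance. Of 81 pairs of a named gene and a group and 24 class means tested, 25 passed. In LV PAB-F, replicate 5, which stood apart on the first principal component, was high for Dars (694), Eprs (1835), Farsb (400.2), Hars2 (721.9), Nars (622.2), Rars (516.7) and the cytosolic mean (5.939 log2 CPM). LV Sham-F replicate 3 was high for Eprs (1634), Farsb (352.7), Hars (246.5), Lars (653.9), Nars (620.9), Tars (394) and the cytosolic mean (5.82). LV PAB-H replicate 2, which also stood apart, was low for Farsb (204.2), the cytosolic mean (5.456) and the mitochondrial mean (4.726). In AOB-H, the animal of replicate 6 was low in the LV for the mitochondrial mean (4.536) and in the RV for the cytosolic (5.916) and mitochondrial (4.944) means. In RV Sham-F, Dars was high in replicate 9 (1276), Iars in replicate 4 (2527) and Lars in replicate 5 (1337), and Rars was low in replicate 4 (578.8). Wars2 was high in RV AOB-F replicate 4 (273).

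The difference between RV and LV was itself different between Sham-F and Sham-H for 20 members (edgeR, adjusted p under 0.05). As the log2 fold change in Sham-F minus that in Sham-H, it was 1.32 for Dars, 1.281 for Rars, 1.21 for Farsb, 1.05 for Lars, 1.04 for Eprs, 0.86 for Hars2, 0.83 for Iars, 0.79 for Tars, 0.75 for Rars2, 0.68 for Nars, 0.62 for Yars2, 0.61 for Wars2, 0.56 for Gars, 0.48 for Lars2, 0.48 for Hars, 0.47 for Mars, 0.36 for Aars, 0.35 for Kars, -0.51 for Vars and -0.51 for Vars2.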

How the results depend on the processing

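With DESeq2 size factors, no filter on low counts, DESeq2 as the test, sex as a covariate or gene length offsets, all 20 counts of called members stayed within 1.5 times their value and all 14 medians moved by less than the spread between replicates. Under the criteria of the study the counts were 0 for LV AOB-F against sham, 0 for the ventricles in Sham-H, 10 in Sham-F, 8 in PAB-F, 6 in AOB-F, 3 between the LV sham stages and 5 for the difference between stages. Fitting only the groups compared gave 1 for RV PAB-H, 3 for RV PAB-F, 0 for LV AOB-F and 2 for the ventricles in Sham-H. The remaining alternatives, chosen after seeing the data, left out the 5 libraries that stood apart (20 for LV AOB-F, 0 for the ventricles in Sham-H), left out the 2 LV AOB-F libraries with the highest cytosolic means, a choice made on the outcome itself (1 for LV AOB-F, and a cytosolic median of 0.47 between the ventricles of AOB-F in place of 0.19), or used the first principal component as a covariate.

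With that covariate 2 members were called in RV PAB-F, and 0 for the ventricles in each of Sham-H, AOB-F, PAB-F and Sham-F, between the LV sham stages and for the difference between stages. Cytosolic medians became -0.15 (ventricles, Sham-H), -0.10 (Sham-F), -0.0315 (PAB-F), -0.27 (AOB-F), -0.026 (LV sham stages) and 0.0297 (difference between stages), and mitochondrial medians -0.15 (Sham-F), -0.13 (AOB-F), 0.0119 (LV sham stages) and -0.0757 (difference). Changes of sign, none with an adjusted p under 0.05, were, for the ventricles, Dars in Sham-H (-0.0393), Dars (-0.0064), Lars (-0.0397), Farsb (-0.19), Eprs (-0.14), Hars2 (-0.14) and Iars (-0.12) in Sham-F, Farsb in PAB-F (-0.026), Dars (-0.19), Farsb (-0.32), Rars (-0.17), Lars (-0.31) and Hars2 (-0.18) in AOB-F, and for the LV sham stages Dars (0.0937) and Lars (0.11). The component is nearly the same split as the ventricle at stage F.

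RV and LV of an animal are paired. With the animal as a replicate block 14 members were called in Sham-H, 13 with gene length offsets added, and the block moved no other count by over 1.5 times (31 in Sham-F, 27 in PAB-F, 21 in AOB-F). In comparisons between animals the numbers in the labels do not pair samples: same-numbered samples had median correlations of -0.103 to 0.16. With this number as a block, LV AOB-F had 10 called members. Leaving out 1 animal at a time gave 0 to 1 called members in RV PAB-H, 0 to 2 in RV PAB-F, 6 to 20 in LV AOB-F, 0 to 10 for the ventricles in Sham-H, 26 to 31 in Sham-F, 21 to 24 in PAB-F, 17 to 20 in AOB-F, 22 to 26 between the LV sham stages and 18 to 22 for the difference between stages, and 0 in the other comparisons. In LV AOB-F, Cars2, Gars, Nars, Tars, Vars2 and Wars were called in all 16 of these fits.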
